A study of Mus musculus with 3 samples.

Results

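Serine-threonine signalling kinases were followed here across 3 spotted 2-colour arrays of mouse thymocyte RNA. The set was taken by name: every probe with exactly 1 gene symbol in the platform annotation, averaged per symbol, whose symbol begins with Map2k, Map3k, Map4k, Mapk, Prk, Camk, Rps6k, Akt, Stk or Csnk. This gave 71 genes, measured by 87 probes, of 6795 genes on the array. The names do not all stand for kinases. Of the 71, 10 encode regulatory subunits, scaffolds, inhibitors or proteins that only share the prefix, and these are pointed out where they appear.

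Each array carried total RNA of CD69hi thymocytes, purified from wild-type B6 (C57BL/6) mice, together with total RNA of unseparated Zap70-/- thymocytes, which the array titles call CD69lo. Thymocytes raise the surface protein CD69 once their T cell receptor (TCR) has been engaged, and Zap70 is the tyrosine kinase that carries the TCR signal, so that thymocytes without it stay at the immature CD4+CD8+ stage. The RNAs therefore differ in genotype, in sorting and in signalling state at once, and these cannot be told apart. Sex-linked genes such as Xist also differed between the RNAs, as given further on. The labels name neither the age nor the sex of the mice, and nothing in them tells if separate animals were used for each array, so the p-values reflect how far the 3 arrays differ, and that difference may be technical.

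Serine-threonine kinases relay the TCR signal from the membrane to the nucleus. In the mitogen-activated protein (MAP) kinase cascades, MAP4 and MAP3 kinases phosphorylate MAP2 kinases, which phosphorylate the ERK, JNK and p38 MAP kinases. Diacylglycerol opens the protein kinase C branch, calcium the calmodulin-dependent branch, and phosphoinositides the Akt branch. In the thymus, ERK signalling is known to be needed for positive selection.

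Values are log2 ratios of CD69hi over Zap70-/- RNA, one per array, so that 1 stands for a 2-fold higher signal in CD69hi RNA. The base of the deposited logarithms is unstated and was assumed to be 2, so fold changes hold under that reading. They carry no absolute level, and genes are therefore not ranked by abundance. In such bulk RNA, more cells of a type and more RNA per cell cannot be told apart. The CD69hi RNA was labelled with Cy3 on arrays 1 and 2 and with Cy5 on array 3, and the ratios of arrays 1 and 2 were turned round accordingly. The submitters do not state the direction, which is therefore likely rather than certain. It follows the labelled dyes, taking each deposited ratio to be Cy5 over Cy3, and in that reading the recombinase gene Rag1 of immature thymocytes was lower in CD69hi RNA (log2 ratio -1.19 ± 0.36, SD, n = 3, adjusted p = 0.035, but 0.13 and 0.18 when array 1 or array 2 was left out). Read as numerator and then denominator, the order of names in the array titles would instead make each deposited ratio Cy3 over Cy5, and every sign given here would be reversed. Across the 71 genes the turned ratios correlated at r = 0.41 between arrays 1 and 2, at 0.11 between arrays 1 and 3 and at 0.73 between arrays 2 and 3. These coefficients describe genes within arrays, and genes are not independent replicates.

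Few of the 71 genes passed the test for a difference between the RNAs, and those that did were all higher in CD69hi RNA. Mapk11, Stk39 and Map3k8 rose, none of the genes was called lower, and 68 did not pass (limma, adjusted p at most 0.05 over 8905 features). The 68 are not thereby shown to be unchanged. On simulated data, which gave far fewer calls per run than these data, the fit recovered 11.6% of log2 shifts of 1. The adjusted cut-off depends on the number of shifted features, so this share need not hold for these data. The 3 calls make up 4.23% of the set, against 6.94% called among all features. By direction, 4.13% of all features were called higher and 2.81% lower, so the share called in the set was near the background. Before adjustment, 21 genes had a p of 0.05 or less, 16 above 0 and 5 below, which is 29.6% of the set against 23.4% of all features.

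The median log2 ratio of the 71 genes was 0.10, against 0.01 for all features, and on the single arrays the set's median was 0.13, 0.10 and 0.14. Mean ratios were positive for 47 genes and negative for 24, against 4577 and 4328 of the 8905 features. The sign was the same on the 3 arrays in 39 genes (30 positive, 9 negative), or 54.9%, against 47.0% of all features. A mean ratio of at least 1 in size was reached by 3 genes, or 4.23%, against 6.63% of all features. Within 0.5 of 0 lay 54 genes of the set and 7153 of the 8905 features. For 56 genes the 95% interval of the mean, taken gene by gene, stayed between -1 and 1. For the other 15, called genes among them, the interval reached further. These intervals reflect the spread of the 3 arrays, which may be technical, so they do not bound the difference between the cells.

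**Figure D1:**
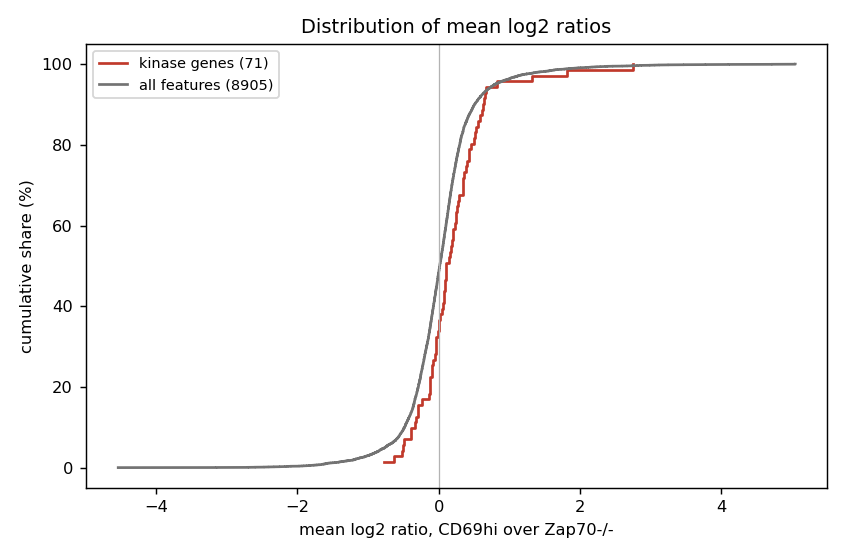
Cumulative share (%) of mean log2 ratios of CD69hi over Zap70-/- RNA for the 71 kinase genes (red) and all 8905 features tested (grey). The red curve lies to the right of the grey one through the middle of the range, with medians of 0.10 and 0.01, and its lowest value is -0.77, while the grey curve reaches -4.54.

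The upstream region of Mapk11, the gene with the highest ratio of the set, is shown together with those of Stk39, the next called gene, and of Mapk12. Mapk12 is the direct neighbour of Mapk11 on chromosome 15 in the RefSeq annotation, with 0 genes listed between them. The mean log2 ratio of Mapk12 was 0.39 (limma, unadjusted p = 0.038, adjusted p = 0.18). The sequences are the 250 bases before the annotated start, from RefSeq (GRCm38.p6), written 5′ to 3′ on the gene's strand. Capitals mark GGAAA on either strand, the core that NFAT factors recognise. No sequence is shown for Map3k8.
Mapk11 (chr15:89149607-89149856, minus strand): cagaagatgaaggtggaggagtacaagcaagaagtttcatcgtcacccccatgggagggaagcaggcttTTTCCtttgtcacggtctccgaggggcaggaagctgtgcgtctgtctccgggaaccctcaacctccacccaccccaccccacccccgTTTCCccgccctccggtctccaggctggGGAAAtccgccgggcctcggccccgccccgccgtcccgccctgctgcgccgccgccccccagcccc
Mapk12 (chr15:89140704-89140953, minus strand): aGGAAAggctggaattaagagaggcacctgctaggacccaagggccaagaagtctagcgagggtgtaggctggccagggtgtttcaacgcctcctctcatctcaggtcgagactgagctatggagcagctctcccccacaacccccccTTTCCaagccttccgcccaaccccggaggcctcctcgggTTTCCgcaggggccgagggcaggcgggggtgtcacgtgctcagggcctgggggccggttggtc
Stk39 (chr2:68471982-68472231, minus strand): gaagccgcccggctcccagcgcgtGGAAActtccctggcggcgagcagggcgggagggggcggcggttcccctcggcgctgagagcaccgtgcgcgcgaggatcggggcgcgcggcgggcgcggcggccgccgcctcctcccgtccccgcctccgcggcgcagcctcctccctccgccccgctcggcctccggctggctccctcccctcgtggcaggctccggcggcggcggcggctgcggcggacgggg
The letters GGAAA occurred 3 times before Mapk11, 3 times before Mapk12 and once before Stk39. They are common, being present in 55.6% of the 32851 annotated upstream regions of this length and in 58.6% of the 87 that belong to 59 genes of the set. The GC box GGGCGG, searched on both strands, occurred 4 times before Mapk11, once before Mapk12 and 4 times before Stk39, and 0 of these overlapped a GGAAA. It was present in 32.7% of all upstream regions and in 60.9% of those of the set. TGANTCA (AP-1), TGACGTCA (cAMP response element) and GCGNGGGCG (Egr) were not found in the 3 printed stretches and occurred in 6.75%, 1.55% and 4.70% of all upstream regions. Among those of the set the shares were 1.15%, 1.15% and 11.5%. These are matches of letters, not binding sites.

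At the top of the MAP kinase cascades, 11 MAP4 and MAP3 kinase genes were measured. A positive mean was found for 10 of them, and for 4577 of the 8905 features. Map3k8, which encodes Tpl2 (Cot), an activator of the ERK cascade, had log2 ratios of 0.71, 0.87 and 0.89 on arrays 1, 2 and 3. The 3 arrays lay close together, and Map3k8 rose 1.77-fold (log2 ratio 0.82 ± 0.10, SD, n = 3, adjusted p = 0.036). The call was lost when any 1 array was left out, with adjusted p of 0.14, 0.28 and 0.0503 for fits lacking array 1, 2 and 3.

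Map3k14, the kinase NIK of the non-canonical NF-κB pathway, had 0.77, 0.75 and 0.50 on arrays 1, 2 and 3. Its mean of 0.67 ± 0.15 did not pass (adjusted p = 0.059), although it did without array 3 (adjusted p = 0.047). Map3k1, or MEKK1, an activator of JNK, had 0.64, 0.52 and 0.80 and a mean of 0.65 ± 0.14 (adjusted p = 0.061). Map4k4, a Ste20-type kinase upstream of JNK, had 0.52 on each array, the smallest spread in the set (SD 0.0046), and a mean of 0.52 (adjusted p = 0.083). These 3 genes were positive on every array and lay just outside the threshold.

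Map3k5, the stress kinase ASK1, had a mean of 0.46 ± 0.31 and Map3k7, or TAK1, of the TGF-β and NF-κB pathways, one of 0.38 ± 0.09, both with a raw p of 0.05 or less and adjusted p = 0.20 and 0.17. Map3k3 had 0.27 ± 0.21 and Map4k1, the haematopoietic kinase HPK1 that restrains TCR signalling, 0.17 ± 0.22. Map3k6 was nearest to 0, at 0.05 ± 0.22. Map4k5 and Map3k20 had ratios of both signs. Map4k5 ran from -0.74 on array 3 to 1.08 on array 1, and Map3k20, the stress kinase ZAK, from -1.49 on array 3 to 0.88 on array 1. With spreads of 0.91 and 1.23 (SD), neither mean can be read as a difference.

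Of the MAP2 kinases, 3 were measured and 0 passed (limma, also 0 with a raw p of 0.05 or less). Map2k1, or MEK1, the activator of ERK, was positive on every array (0.22, 0.32 and 0.47, mean 0.34 ± 0.13, adjusted p = 0.22). Map2k4, which activates JNK and p38, had 0.09 ± 0.17. Map2k6, the activator of p38, had 0.87 on array 1 but -0.32 and -0.30 on arrays 2 and 3, with a mean of 0.08 ± 0.68.

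Among the MAP kinases themselves, Mapk11 had the highest ratio. It encodes p38β, and its log2 ratios were 2.41, 2.90 and 2.94 on arrays 1, 2 and 3. Every array was above 4-fold, and Mapk11 rose 6.72-fold (log2 ratio 2.75 ± 0.30, SD, n = 3, adjusted p = 0.0068), with a 95% interval of 2.32 to 3.18. It passed in each of the 7 alternative fits, with adjusted p between 0.0058 and 0.028. It rests on 1 probe, and a spotted cDNA can also bind transcripts of related genes.

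The other p38 genes did not share this ratio. Mapk14, the p38α gene, had -0.35, -0.18 and 0.17 and a mean of -0.12 ± 0.26 (adjusted p = 0.69), and its 2 probes agreed at -0.17 and -0.08. Mapk12, or p38γ, had 0.59, 0.29 and 0.30, with a mean of 0.39 ± 0.17 (adjusted p = 0.18). Mapk13, or p38δ, had -0.11, 0.19 and 0.63, with a mean of 0.24 ± 0.37 (adjusted p = 0.51). The lowest array value of Mapk11, 2.41, was above the highest array value of these 3 genes, 0.63. Within arrays the ratio of Mapk11 exceeded that of Mapk14 by 2.76, 3.09 and 2.77, which is 2.87 ± 0.19 on the log2 scale (SD, n = 3). Over Mapk12 the excess was 2.36 ± 0.46 and over Mapk13 it was 2.51 ± 0.20. These differences, like those between isoforms given further on, were computed after the values were seen and were not tested.

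The JNK genes gave no call. Mapk9 (JNK2) was the MAP kinase nearest to 0, with 0.07, 0.06 and -0.12 and a mean of 0.00 ± 0.11. Mapk10 (JNK3), best known from the nervous system, had 6.04 on array 1 against 0.28 and -0.87 on arrays 2 and 3. Its mean of 1.82 ± 3.70 rests on array 1, and the gene did not pass (adjusted p = 0.50). Mapk7, or ERK5, had 0.35 ± 0.24 (adjusted p = 0.25).

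**Figure D2:**
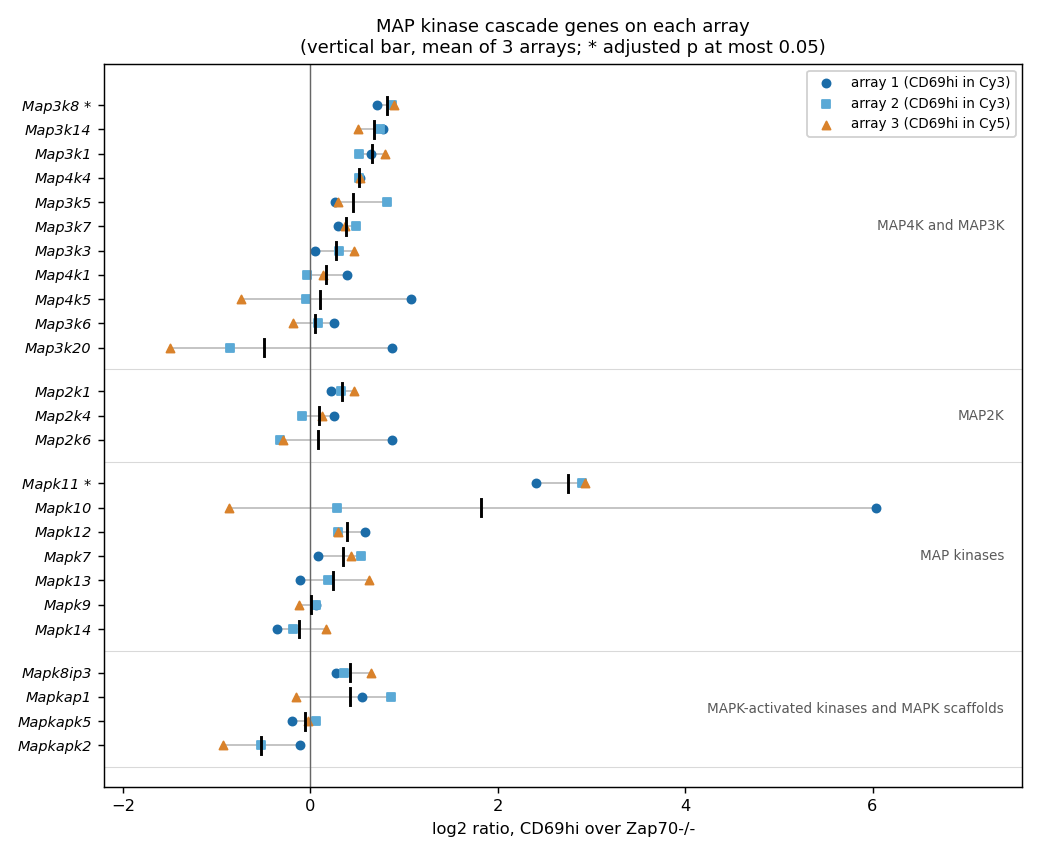
Log2 ratio of CD69hi over Zap70-/- RNA on each array (horizontal axis) for the 25 MAP kinase cascade genes, grouped by their place in the cascade, with the 3 arrays as separate symbols, the mean as a vertical bar and an asterisk for adjusted p at most 0.05. Mapk11 lies between 2.41 and 2.94 on the 3 arrays, far to the right of Mapk12, Mapk13 and Mapk14, while Mapk10 is spread from -0.87 to 6.04.

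Downstream of p38, Mapkapk2 (MK2), which p38 activates and which stabilises cytokine messages, had -0.12, -0.53 and -0.94 on arrays 1, 2 and 3. It was negative on each, but the mean of -0.53 ± 0.41 did not pass (adjusted p = 0.20). Mapkapk5 had -0.05 ± 0.13, and its 2 probes had opposite signs (-0.38 and 0.27). The remaining names of this group are not kinases. Mapk8ip3, the JNK scaffold JIP3, had 0.43 ± 0.19 (adjusted p = 0.17), and Mapkap1, the Sin1 subunit of mTOR complex 2, had 0.42 ± 0.52.

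Of the genes around the cascades, a list of Ras pathway members, MAP kinase phosphatases and early targets had 25 measured genes, of which 6 rose and 0 fell. For this list, and for the families and lists below, the shares among all features were 4.13% called higher and 2.81% called lower. A raw p of 0.05 or less was reached by 23.4% of all features. The other 19 did not pass, and the list's median ratio was 0.42. Fos, an AP-1 subunit whose transcription ERK drives, had 2.02, 2.47 and 2.04 on arrays 1, 2 and 3 (mean 2.18 ± 0.25, adjusted p = 0.0091). Gadd45b, an activator of the p38 and JNK branches, had a mean of 2.14 ± 0.55 (adjusted p = 0.020), and Dusp2, a phosphatase of MAP kinases, one of 1.86 ± 0.24 (adjusted p = 0.011). Leaving out array 1 ended the call of Gadd45b (adjusted p = 0.053). The 3 other genes that rose were Dusp6, Dusp5 and Gadd45a. Fits lacking array 1, 2 or 3 called 4, 3 and 5 genes of this list, all higher. The list was drawn up with earlier results of these data known, so its direction is no independent evidence.

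Protein kinase C and protein kinase D genes gave 0 calls among 7 (limma; a raw p of 0.05 or less was reached by 0 above 0 and 2 below). The lowest was Prkcb, a conventional isoform that answers to calcium and diacylglycerol, with -0.55, -0.74 and -0.61 on arrays 1, 2 and 3. The arrays lay close together and its 2 probes had nearly the same mean (-0.65 and -0.61), but the mean of -0.63 ± 0.10 did not pass (adjusted p = 0.061). Prkci, an atypical isoform of cell polarity, had -0.51, -0.39 and -0.61, with a mean of -0.50 ± 0.11 (adjusted p = 0.10).

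Prkcz, the other atypical isoform, had 0.68, 0.81 and 0.00, with a mean of 0.50 ± 0.43 (adjusted p = 0.24). Its values lay above those of Prkci on every array, by 1.00 ± 0.34. Prkcd, which answers to diacylglycerol without calcium, had 0.28 ± 0.09 (adjusted p = 0.27) and exceeded Prkcb by 0.91 on arrays 1 and 3 and by 0.92 on array 2. It averages 2 probes with means of 0.07 and 0.50, the lower of which was below 0 on arrays 2 and 3. Prkca was near 0, at -0.05 ± 0.22. Prkd1 had 0.71 on array 3 against -0.08 and -0.06 on arrays 1 and 2, and Prkd2, the protein kinase D isoform of lymphocytes, had a mean of 0.01 ± 0.34.

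AMP-activated protein kinase senses energy shortage through a catalytic α subunit and regulatory β and γ subunits. The β subunit gene Prkab2 had 0.42, 0.31 and 1.02 on arrays 1, 2 and 3, positive on each, with a mean of 0.58 ± 0.38 (adjusted p = 0.16). The catalytic gene Prkaa1 was nearest to 0, at -0.05 ± 0.38. The γ subunits pointed apart, with Prkag1 at 0.36 ± 0.28 and Prkag2 at -0.30 ± 0.13 (adjusted p = 0.27 and 0.26). Stk11, which encodes LKB1, the kinase that activates AMP-activated protein kinase, was negative on each array with a mean of -0.32 ± 0.28 (adjusted p = 0.31).

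The cyclic nucleotide kinases gave 0 calls among 4 (limma, also 0 with a raw p of 0.05 or less), with means from -0.23 to 0.25. Prkacb, a catalytic subunit of protein kinase A, was positive on each array at 0.25 ± 0.07 (adjusted p = 0.31), the catalytic subunit Prkaca had -0.05 ± 0.24 and the regulatory subunit Prkar2a -0.23 ± 0.34. The cyclic GMP-dependent kinase Prkg2 was nearest to 0, at 0.01 ± 0.10. Of the other names beginning with Prk, Prkdc, the DNA-dependent protein kinase needed for V(D)J recombination, had 0.08 ± 0.10. Prkcsh, the β chain of glucosidase II, had -0.08 ± 0.17, and Prkra, an activator of the RNA-dependent kinase PKR, -0.09 ± 0.26.

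Calmodulin-dependent kinases gave 0 calls among 7 (limma; a raw p of 0.05 or less was reached by 3 above 0 and 0 below). Camk2b, a CaMKII subunit, had 0.48, 0.44 and 0.95 on arrays 1, 2 and 3 (mean 0.62 ± 0.29, adjusted p = 0.10). Camkk2, which phosphorylates CaMKI, CaMKIV and AMP-activated protein kinase, had 0.42, 0.64 and 0.79 (mean 0.62 ± 0.19, adjusted p = 0.079). Camk2d had 0.46, 0.57 and 0.52 (mean 0.52 ± 0.05, adjusted p = 0.088). All 3 were positive on every array without passing.

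Camk2g, the remaining CaMKII subunit measured, was negative on every array, with -0.35, -0.22 and -0.32 (mean -0.30 ± 0.07, adjusted p = 0.24), and its 2 probes gave -0.31 and -0.29. Within arrays Camk2d exceeded Camk2g by 0.82, 0.79 and 0.84 and Camk2b exceeded it by 0.92 ± 0.31. Camk4, a nuclear kinase abundant in T cells, had 0.15 ± 0.18 (adjusted p = 0.59), and its 2 probes had opposite signs (-0.16 and 0.45). Camk1 was nearest to 0, at -0.01 ± 0.18. Camk2n2, an inhibitor of CaMKII and not a kinase, had 0.87 on array 3 against -0.30 and -0.40 on arrays 1 and 2.

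A list of genes around the protein kinase C, calcium and cyclic AMP branches had 22 measured members, of which 2 rose and 3 fell. The other 17 did not pass, and the median ratio was 0.13. Nfatc1, a calcium-dependent transcription factor that TCR signals induce, had 1.34, 1.62 and 1.74 on arrays 1, 2 and 3 (mean 1.57 ± 0.21, adjusted p = 0.014). Its relative Nfatc3 had -1.71, -1.62 and -1.27 (mean -1.53 ± 0.23, adjusted p = 0.015), and Marcks, a membrane substrate of protein kinase C, had -1.06, -1.11 and -1.09 (mean -1.08 ± 0.03, adjusted p = 0.020). The other calls were the adenylate cyclase Adcy7, which rose, and the calcium channel Itpr2, which fell. Without array 2 none of the list passed (limma), and without array 1 only Nfatc1 did (adjusted p = 0.038).

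Of the Rps6k kinases, which act below ERK, p38 or mTOR, Rps6ka5 had the lowest mean of all 71 genes. It encodes MSK1, a nuclear kinase that phosphorylates CREB and histone H3, and had -0.31, -0.99 and -1.03 on arrays 1, 2 and 3. The mean of -0.77 ± 0.40 did not pass (adjusted p = 0.096). Its probes differed: one had -0.91, -1.12 and -1.04 (mean -1.02 ± 0.10) and, fitted alone, passed (adjusted p = 0.025), while the other had 0.30, -0.86 and -1.01 (mean -0.52 ± 0.71, adjusted p = 0.36). Rps6ka3, or RSK2, an ERK effector, was positive on each array at 0.22 ± 0.11 (adjusted p = 0.37). Rps6ka6 ran from -1.16 on array 3 to 0.28 on array 2.

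The Akt names gave 0 calls among 3 (limma, also 0 with a raw p of 0.05 or less), with means from 0.10 to 0.20. Akt1 had 0.58, -0.31 and 0.03 (mean 0.10 ± 0.45) and Akt2 had 0.12, 0.02 and 0.47 (mean 0.20 ± 0.23, adjusted p = 0.49). Aktip, an adaptor that binds Akt and is no kinase, had 0.15 ± 0.03 (adjusted p = 0.52), and its 2 probes had opposite signs (-0.08 and 0.39). Of 13 measured genes of a list around phosphoinositide 3-kinase, Akt and mTOR, 0 passed (limma; a raw p of 0.05 or less was reached by 3 above 0 and 0 below), and the median was 0.03. Inpp5d, the lipid phosphatase SHIP1 that opposes phosphoinositide 3-kinase, had the largest moderated statistic, with 0.35, 0.71 and 0.78 (mean 0.61 ± 0.23, adjusted p = 0.090).

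The genes named Stk come from several branches of the kinase tree. Stk39 encodes SPAK, a Ste20-type kinase that phosphorylates cation-chloride cotransporters and that binds protein kinase C θ in T cells. It had 0.89, 1.54 and 1.53 on arrays 1, 2 and 3, and rose 2.50-fold (log2 ratio 1.32 ± 0.37, SD, n = 3, adjusted p = 0.031). Both of its probes were positive on each array, with means of 1.68 ± 0.56 and 0.96 ± 0.28, and each passed alone (adjusted p = 0.033 and 0.042). Averaged, Stk39 lost its call when array 2 (adjusted p = 0.14) or array 3 (adjusted p = 0.063) was left out.

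Stk10 and Stk26, also of the Ste20 type, were positive on every array without passing. Stk10, or LOK, a lymphocyte kinase of the ezrin-radixin-moesin proteins, had 0.54, 0.60 and 0.80 (mean 0.65 ± 0.14, adjusted p = 0.062). Stk26, or MST4, had 0.68, 0.53 and 0.47 (mean 0.56 ± 0.11, adjusted p = 0.079). Stk38, the kinase NDR1, had 0.21 ± 0.08, and Stk35 was nearest to 0, at 0.10 ± 0.07. Stk16 was negative on every array at -0.40 ± 0.26 (adjusted p = 0.22), Stk19 had -0.12 ± 0.22, and Stk33 ran from -0.78 on array 3 to 0.36 on array 1.

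Casein kinases, constitutively active kinases of Wnt, clock and many other pathways, gave 0 calls among 6 (limma; a raw p of 0.05 or less was reached by 0 above 0 and 1 below). Csnk1e had -0.52, -0.33 and -0.32 on arrays 1, 2 and 3 (mean -0.39 ± 0.11, adjusted p = 0.17), and its 2 probes gave -0.43 and -0.35. Csnk1a1, the α isoform that primes β-catenin for destruction, was positive on each array at 0.35 ± 0.24 (adjusted p = 0.26), as was Csnk1g3 at 0.25 ± 0.18. Csnk1d was nearest to 0, at 0.08 ± 0.33. The catalytic subunits of casein kinase 2, Csnk2a1 and Csnk2a2, had -0.13 ± 0.29 and -0.09 ± 0.14.

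**Figure D3:**
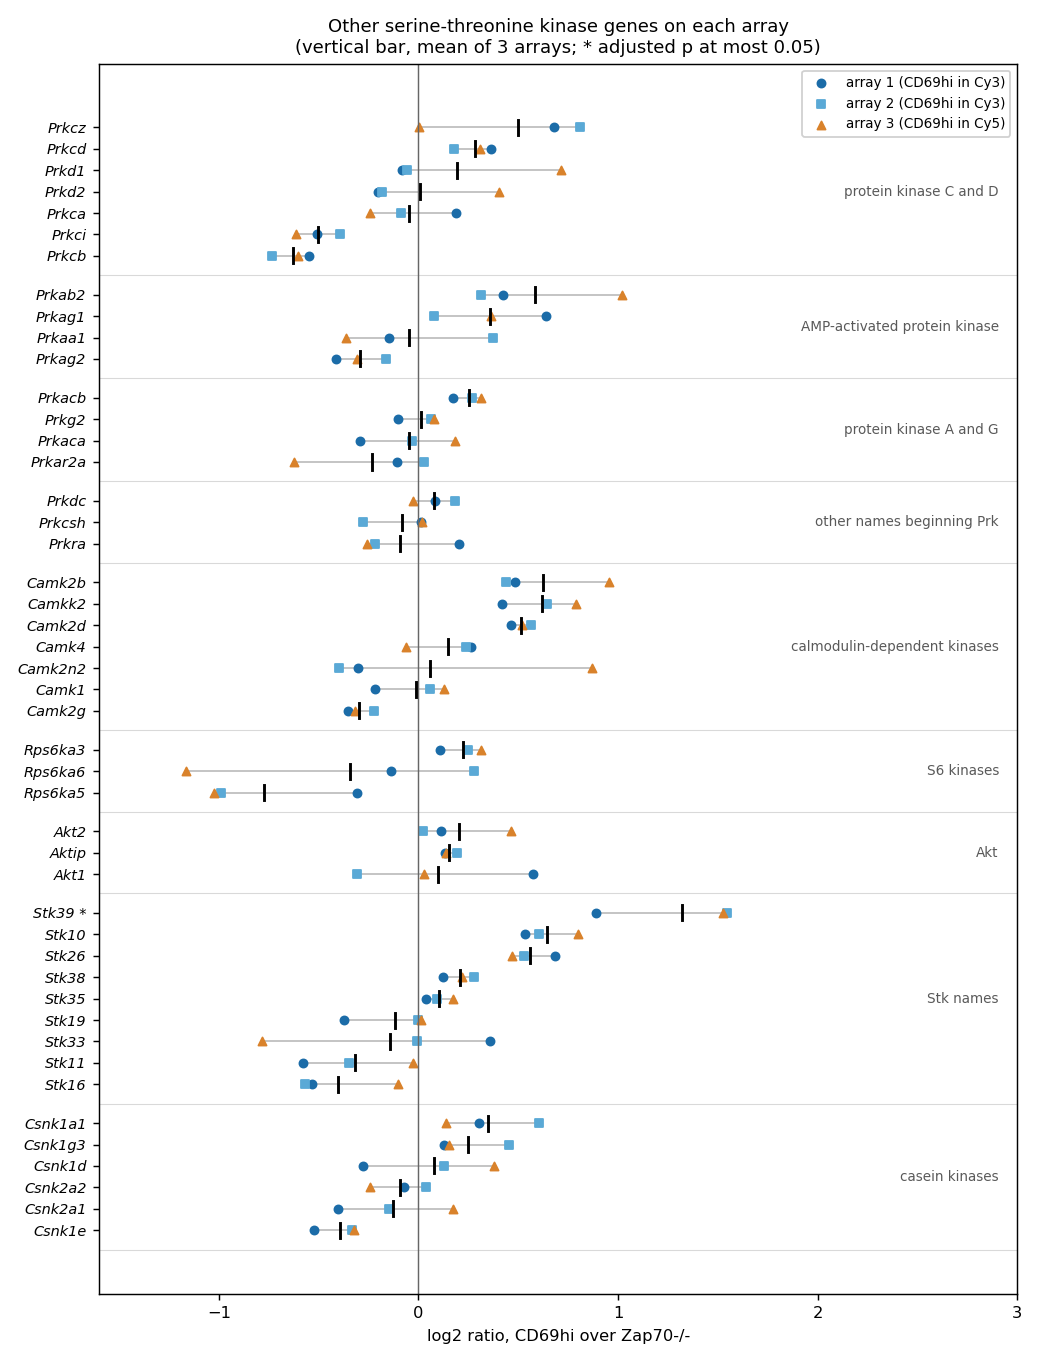
Log2 ratio of CD69hi over Zap70-/- RNA on each array (horizontal axis) for the 46 kinase genes outside the MAP kinase cascades, grouped by family, with the 3 arrays as separate symbols, the mean as a vertical bar and an asterisk for adjusted p at most 0.05. Stk39 is the 1 gene with an asterisk, at a mean of 1.32, and Rps6ka5 has the lowest mean, -0.77.

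A list around AMP-activated protein kinase, the Hippo pathway and the casein kinases had 18 measured genes, of which 0 passed (limma; a raw p of 0.05 or less was reached by 1 above 0 and 1 below), with a median of 0.11. Its largest moderated statistic belonged to Rassf2, an MST kinase partner, with a mean of 0.43 ± 0.17 (adjusted p = 0.16). A further list held genes classed as serine-threonine kinases outside the set. Of 37 measured, 2 rose and 7 fell. The other 28 did not pass, and the median ratio was -0.04. Of the called genes, those with the largest ratios were the mitotic genes Bub1b (-2.14 ± 0.81, adjusted p = 0.035), Aurkb (-1.95 ± 0.83, adjusted p = 0.042) and Cdk1 (-1.87 ± 0.82, adjusted p = 0.045). Without array 1, 0 of the 37 fell and 1 rose, without array 2 none passed, and without array 3, 9 fell and 2 rose. The 2 that rose were Ikbke (1.43 ± 0.05, adjusted p = 0.012), a kinase of interferon and NF-κB signalling, and Tgfbr2 (1.15 ± 0.35, adjusted p = 0.036), the TGF-β receptor. Neither the list nor its difference from the 71 genes was tested.

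**Figure D4:**
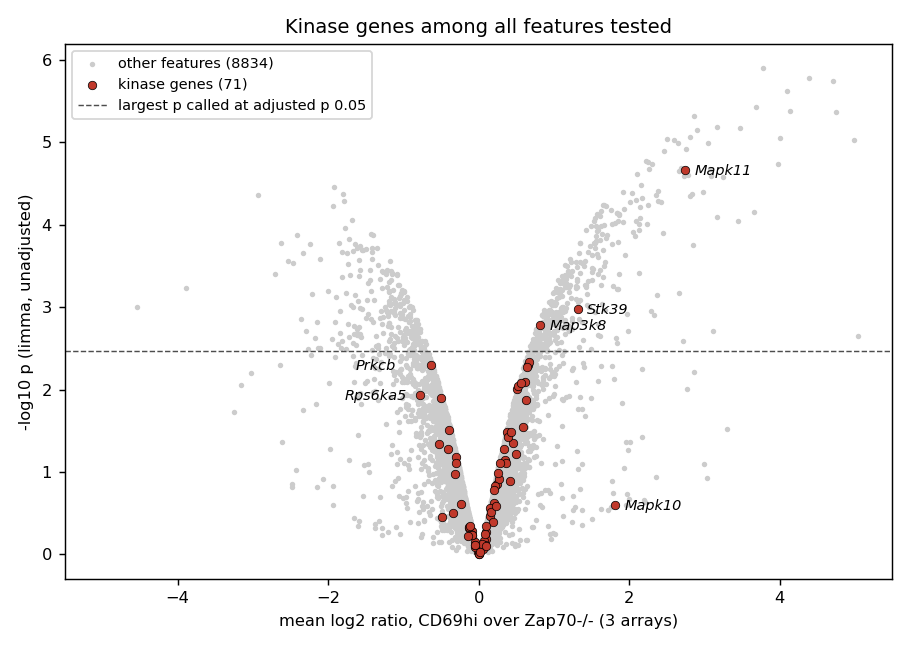
Mean log2 ratio of CD69hi over Zap70-/- RNA over 3 arrays (horizontal axis) against -log10 of the unadjusted limma p (vertical axis) for the 71 kinase genes (red) and the other features (grey), with the dashed line at the largest p that passed after adjustment. Mapk11, Stk39 and Map3k8 are the 3 red points above the line, all to the right of 0, and Mapk10 lies far right but low because its arrays spread from -0.87 to 6.04.

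Marker lists of cell types also differed, some higher and others lower in CD69hi RNA. Among all features 4.13% were called higher and 2.81% lower. Of 25 measured myeloid and dendritic cell markers 16 rose and 0 fell, and their median ratio was 1.20 (1.16, 1.53 and 1.32 by array). The macrophage genes Lyz2 (2.51 ± 0.08) and C1qa (2.23 ± 0.09) were among those that rose. Of 9 B cell markers 2 rose and 0 fell (median 0.43), of 8 granulocyte markers 0 rose and 1 fell (median -0.90), and 0 of 4 erythroid and 0 of 10 stromal markers passed (limma, 1 and 2 with a raw p of 0.05 or less). Of 12 thymocyte markers 0 rose and 2 fell (median -0.33). Of 21 cell cycle genes 0 rose and 8 fell (median -1.37). Bub1b, Aurkb and Cdk1, already given above in the list of kinases outside the set, are among these 8. These counts depended on the arrays. Fits lacking array 1, 2 or 3 called 11, 10 and 15 myeloid markers higher and 0, 0 and 15 cell cycle genes lower. B cell markers called higher numbered 1, 0 and 1 in these fits, granulocyte markers called lower 0, 0 and 4, and thymocyte markers called lower 1, 1 and 3. Myeloid cells are also known to express Map3k8. The part of the myeloid, B cell and cell cycle differences in the ratios of Mapk11, Stk39 and Map3k8 was not tested. Sex-linked genes differed as well, with Xist at 1.84 ± 0.79 and the Y-linked Eif2s3y and Kdm5d at -1.61 ± 0.64 and -1.57 ± 0.62. All 3 kept 1 sign over the arrays and were also called without array 1. None of them was called when array 2 or array 3 was left out. Of the kinase genes, Stk26, Rps6ka3 and Rps6ka6 lie on chromosome X, with means of 0.56, 0.22 and -0.34. The part of the sex-linked difference in these ratios was not tested.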

How the data were processed

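RNA of CD69hi and of Zap70-/- thymocytes was compared on 3 2-colour arrays of 1 print, per the labels. The authors deposited 1 log ratio per probe and array for 9596 probes. The values are taken as log2. How background, spot quality and normalization were handled is not given in the sources used, nor is the base. No dim spot was removed. Ratios beyond 4 in size occurred on 47, 29 and 30 probes of arrays 1, 2 and 3. Array medians of the deposited log2 ratios were -0.004, -0.005 and -0.002.

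The platform annotation gave 1 symbol to 7486 probes, several to 483 and none to 1627. Averaging the 1-symbol probes of a gene and keeping all others apart gave 8905 features. All 71 kinase symbols matched the RefSeq gene table by Entrez identifier, and 0 changed. Arrays 1 and 2 were multiplied by -1 by the labelled dyes. Before turning, array 3 correlated with arrays 1 and 2 at r = -0.25 and -0.40, and arrays 1 and 2 with each other at 0.61.

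The linear model of limma 3.58.1 in R 4.3.3 (functions lmFit and eBayes) held 1 coefficient, with 2 residual and 2.75 prior degrees of freedom. Two-sided p-values were adjusted by Benjamini-Hochberg across the 8905 features, and 0.05 was the cut-off. Errors after ± are SDs over 3 arrays. The number of arrays limits the precision. On simulated data for this comparison (5 runs of 8905 features) the fit recovered 11.6% of log2 shifts of 1 and 82.6% of shifts of 2, with 23 false ones among 494 calls. The fit of the data themselves gave 618 calls. The adjusted cut-off depends on the number of shifted features, so these shares need not hold for the data. With 3 arrays, failing the test still does not show a gene to be unchanged.

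The members and lists were chosen with earlier results of these data known. Named were all called genes, those with a raw p of 0.05 or less and, per family, the uncalled gene of constant sign with the largest ratio and the gene nearest to 0. Further members are named with their values after these were seen, as are Rag1, Adcy7, Itpr2, Dusp5, Dusp6, Gadd45a, Ikbke, Tgfbr2, Lyz2, C1qa, Xist, Eif2s3y and Kdm5d. In each surrounding list up to 3 called genes with the largest ratios are given, or else the gene with the largest moderated statistic. Upstream sequences were cut to 250 bases and searched in Python 3.11.15. Alternatives left out each array, scaled the arrays, added a dye term, used robust shrinkage or fitted each probe alone. The last kept, per gene, the probe with the smallest p.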

Additional observations from a re-analysis of the deposited data

How the results depend on the processing

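The direction of every kinase gene that passed in any fit was kept under the alternatives run. Mapk11 passed in all 7, Stk39 in 5 and Map3k8 in 4. Leaving out 1 array at a time gave between 1 and 2 kinase genes rising (1 without array 2), 0 falling and a median between 0.11 and 0.17. Each such fit has fewer arrays, and over all features the number of calls was 201, 119 and 692 when array 1, 2 or 3 was dropped. With a dye term 9 rose and 1 (Prkcb, adjusted p = 0.049) fell, and the set's median was 0.15. That fit leaves 1 residual degree of freedom and called 1076 of all features against 618. Genes added by it were Camk2b, Camkk2, Map3k1, Map3k14, Prkab2 and Stk10 (adjusted p from 0.038 to 0.049). A further fit took each probe alone and kept, per gene, the probe with the smallest p. By that choice 3 rose and 1 (Rps6ka5, adjusted p = 0.025) fell, with a median of 0.13. The other probe of Rps6ka5 did not pass (limma, adjusted p = 0.36). With scaled arrays the median was 0.14. Beyond that choice of probe, the cause of these shifts was not tested. Scaling and robust shrinkage left 3 genes rising and 0 falling. Of 259 comparisons of 37 named kinase genes with an alternative, 245 kept their side of the threshold, 5 lost the call and 9 gained it. Among those that passed in either fit, 0 were reversed. The 245 include genes that passed in neither fit and changed sign. Without array 1, for example, Akt1 went from 0.10 to -0.14 and Map2k6 from 0.08 to -0.31. Each ratio already pairs both RNAs within an array, so no further replicate block was fitted. No spot intensities were used, so the signal over background behind each ratio is unknown.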

Other observations

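A further 8 probes carried several symbols of which 1 belonged to a kinase of these families, and they were kept apart from the 71 genes. None passed (limma, also 0 with a raw p of 0.05 or less). Their means ran from -0.38 ± 0.34 (a probe for Map3k12 or Pcbp2) to 0.28 ± 0.79 (Map3k10 or Ttc9b). A probe for Csnk1d or Slc16a3 had 1.02 on array 1 against -0.12 and -0.06 on arrays 2 and 3.

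In 8 of the 71 genes the SD over the arrays was above 0.5. Array 1 held the highest value of Mapk10, Map3k20, Map4k5, Map2k6 and Stk33, and array 3 the lowest value of Mapk10, Map3k20, Map4k5, Rps6ka6, Stk33 and Mapkap1. On array 3, where the CD69hi RNA carried the other dye, Camk2n2 had the highest of its 3 values. Of the 16 kinase genes with 2 probes, the probe means lay furthest apart in Stk39 (0.72), Mapkapk5 (0.65) and Camk4 (0.61).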
